A study of Mus musculus with 4 samples.

Results

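The NRF2 and antioxidant genes examined here are Nfe2l2, Keap1, Txn1, Txnrd1, Gpx1, Prdx1, Hmox1, Gclm, Gclc and Sod1, chosen by name as the regulator NRF2, its inhibitor and well known antioxidant enzymes. Of these 10 genes, 9 were measured by 15 probe sets that the platform annotation assigns to a single gene, out of 12393 genes measured in the same way. Prdx1 was set aside, because all 5 of its probe sets are assigned both to it and to its pseudogene Gm21399. The main probe set of a gene is the one with the highest mean over the 4 arrays, and the other probe sets of the 9 genes are given beside it.

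Gene expression was profiled on Affymetrix arrays in splenic CD8 T cells of mice given dioxin or its solvent. The TCDD group held female C57BL/6 mice aged 8 to 12 weeks that received 10 µg/kg of TCDD, a persistent dioxin and ligand of the aryl hydrocarbon receptor (AHR), by intraperitoneal injection. The DMSO group held mice of the same strain, sex and age that received DMSO by the same route. Spleens were taken after 24 h, and FACS gave CD8 T cells with a stated purity above 99%. Each group has 2 arrays, numbered 1 and 2 in the sample titles. The design text speaks of 4 mice a group with pooled cell suspensions, and nothing in the labels tells whether a group's arrays are separate pools, so p-values reflect only how far these arrays differ among themselves, and that spread may be technical.

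NRF2, the product of Nfe2l2, is the transcription factor that switches on antioxidant and detoxification genes. In unstressed cells KEAP1 hands it to a CUL3 ubiquitin ligase for destruction. Oxidants and electrophiles modify cysteines of KEAP1, after which NRF2 accumulates, pairs with small MAF proteins and binds antioxidant response elements. Its targets feed the thioredoxin and glutathione systems, on which T cells depend when activation raises their output of reactive oxygen species. In mouse liver cells TCDD is known to engage both AHR and NRF2, and Nqo1 is a shared target.

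Promoter windows are shown for the 5 genes whose main probe sets measured lower on each TCDD array than on either DMSO array. They are RefSeq sequences of build GRCm38.p6 that run from 250 bases before to 50 after a gene's start, on the strand of the gene. Capitals mark TGACNNNGC, the core of the antioxidant response element, and GCGTG, the core of the xenobiotic response element that AHR binds, on either strand.
Nfe2l2 (chr2:75704614-75704913, minus strand): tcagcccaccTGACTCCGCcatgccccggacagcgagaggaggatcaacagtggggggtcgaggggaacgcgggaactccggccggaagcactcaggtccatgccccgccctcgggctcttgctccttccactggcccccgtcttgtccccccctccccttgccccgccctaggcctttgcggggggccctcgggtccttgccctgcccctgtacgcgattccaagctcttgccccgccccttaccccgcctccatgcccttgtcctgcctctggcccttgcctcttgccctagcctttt
Txn1 (chr4:57956362-57956661, minus strand): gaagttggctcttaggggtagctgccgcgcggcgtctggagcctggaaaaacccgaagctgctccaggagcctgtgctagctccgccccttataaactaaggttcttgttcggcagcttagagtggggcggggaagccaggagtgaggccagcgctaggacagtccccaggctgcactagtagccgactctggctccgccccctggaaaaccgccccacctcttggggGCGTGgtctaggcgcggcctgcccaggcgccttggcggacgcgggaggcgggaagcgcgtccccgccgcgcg
Gpx1 (chr9:108338830-108339129, plus strand): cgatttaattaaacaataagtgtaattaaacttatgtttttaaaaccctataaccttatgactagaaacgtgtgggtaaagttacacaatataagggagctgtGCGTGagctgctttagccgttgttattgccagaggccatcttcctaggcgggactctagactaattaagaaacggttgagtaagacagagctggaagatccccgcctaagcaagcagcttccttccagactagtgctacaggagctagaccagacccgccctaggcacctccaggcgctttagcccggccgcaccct
Gclm (chr3:122245307-122245606, plus strand): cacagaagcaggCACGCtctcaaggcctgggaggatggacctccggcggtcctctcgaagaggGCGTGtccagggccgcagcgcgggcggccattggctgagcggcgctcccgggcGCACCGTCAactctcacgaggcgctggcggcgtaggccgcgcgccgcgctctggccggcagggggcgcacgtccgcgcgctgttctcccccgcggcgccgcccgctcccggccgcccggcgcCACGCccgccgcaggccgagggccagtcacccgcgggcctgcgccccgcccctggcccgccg
Sod1 (chr16:90220512-90220811, plus strand): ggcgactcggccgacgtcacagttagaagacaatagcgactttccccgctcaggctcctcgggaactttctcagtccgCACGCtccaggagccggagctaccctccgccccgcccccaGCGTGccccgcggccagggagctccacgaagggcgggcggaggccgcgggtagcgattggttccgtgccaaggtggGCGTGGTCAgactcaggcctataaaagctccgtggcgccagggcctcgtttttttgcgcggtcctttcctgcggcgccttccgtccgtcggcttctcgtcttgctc

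The Nfe2l2 window holds TGACNNNGC once, as TGACTCCGC from base -240, and no GCGTG. The windows of Txn1 and Gpx1 each hold GCGTG once and no TGACNNNGC. The Gclm window holds TGACNNNGC once and GCGTG 3 times. The Sod1 window also holds TGACNNNGC once and GCGTG 3 times, and its TGACCACGC on the minus strand overlaps a GCGTG at base -56. Windows not shown held these letters too. The Keap1 window held GCGTG 2 times, and each of the 3 Txnrd1 windows held GCGTG, 1 of them with TGACNNNGC as well. The window of Prdx1, whose expression was set aside, held TGACNNNGC once. Of all 32851 promoter windows of this length, 12.4% held TGACNNNGC and 32.4% held GCGTG. These matches describe letters and are not shown to be binding sites, because binding was not measured. In the sources used here, RefSeq windows were found for 8 of the 10 genes, but not for Hmox1 and Gclc.

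Across the arrays, 0 of 22626 probe sets passed limma's moderated test of TCDD against DMSO at an adjusted p of 0.05 (0%), and at an unadjusted p under 0.05 there were 439 (1.94%). None of the 9 antioxidant genes passed, with adjusted p = 0.9973 for every one of their 15 probe sets in limma. With 2 arrays against 2 a two-sided exact permutation test cannot go below 0.3333, so no such p is given for a single gene. All differences are TCDD minus DMSO in log2 units, with 95% limits from limma.

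The transcript of the regulator itself showed the largest difference of the 9 genes. Nfe2l2 measured 5.54 and 5.38 in TCDD arrays 1 and 2, against 6.14 and 6.80 in DMSO arrays 1 and 2. Both TCDD arrays were low, close to each other and below both DMSO arrays, of which array 2 was the higher. The means were 5.46 ± 0.113 after TCDD and 6.47 ± 0.467 after DMSO (SD, n = 2 each). The difference was -1.01, with limits of -1.64 and -0.38, or 0.497-fold with limits of 0.32 and 0.77. Its unadjusted limma p was 0.009746, and it did not pass after adjustment (adjusted p = 0.9973). Of the 12393 genes, 15 (0.121%), with Nfe2l2 itself counted, differed by at least as much in this direction.

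Within the title numbers Nfe2l2 was lower after TCDD by both comparisons, at -0.60 for the arrays numbered 1 and -1.42 for those numbered 2. Leaving out each array in turn gave differences from -1.34 without DMSO array 1 to -0.68 without DMSO array 2. The mean of this probe set, 5.96, lay just below the array-wide median of 6.01, a range in which RMA poorly separates weak expression from none. In bulk cells such as these, fewer cells that hold a transcript and less of it in each cell cannot be told apart.

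Keap1, which encodes the inhibitor, did not differ measurably. Its main probe set measured 7.52 and 8.00 in the TCDD arrays and 7.85 and 7.71 in the DMSO arrays. The DMSO values lay between the TCDD values, and the difference was -0.02, with limits of -0.52 and 0.48. The direction was not shared by the numbers, with -0.33 between the arrays numbered 1 and 0.29 between those numbered 2. The other Keap1 probe set, below the median level, differed by -0.125 with overlapping groups.

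**Figure D1:**
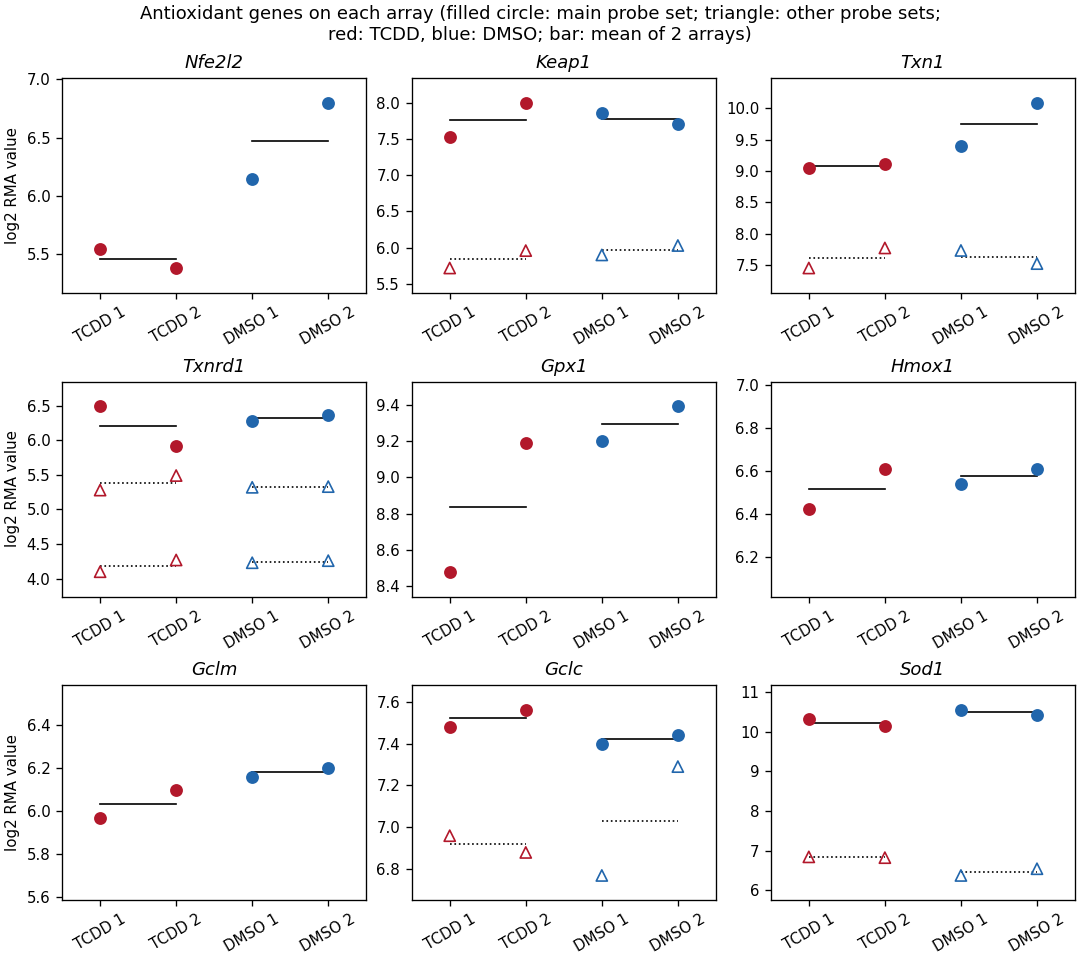
Log2 RMA value (vertical axis, scaled separately in each panel) of each probe set of the 9 measured antioxidant genes on the TCDD arrays 1 and 2 and the DMSO arrays 1 and 2. Filled circles are main probe sets, triangles are other probe sets, and bars are the means of 2 arrays. Nfe2l2 lies at 5.54 and 5.38 in the TCDD arrays, below 6.14 and 6.80 in the DMSO arrays, while the TCDD and DMSO values of Keap1 and Hmox1 overlap. Levels of different probe sets cannot be set against each other.

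Among the thioredoxin genes, Txn1 measured lower after TCDD by one of its probe sets and not by the other. Txn1 encodes cytosolic thioredoxin, which reduces disulfides in proteins through a pair of cysteines. Its main probe set measured 9.04 and 9.11 in the TCDD arrays, against 9.40 and 10.09 in the DMSO arrays. The TCDD arrays were nearly equal and low, and DMSO array 2 stood highest. The difference was -0.67, with limits of -1.31 and -0.03, and an unadjusted limma p of 0.04408 (adjusted p = 0.9973). It was -0.36 within number 1 and -0.98 within number 2, and it shrank to -0.325 without DMSO array 2 and grew to -1.015 without DMSO array 1.

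The other Txn1 probe set, also above the median level, measured 7.45 and 7.77 in the TCDD arrays and 7.73 and 7.52 in the DMSO arrays. These groups overlapped, and the difference was -0.015, with limits of -0.43 and 0.40. The probe sets of Txn1 disagreed, and which parts of the transcript they read was not analysed here.

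Txnrd1 encodes the selenium-containing reductase that restores thioredoxin at the cost of NADPH, and it is a standard NRF2 target. Its main probe set measured 6.49 and 5.92 in the TCDD arrays and 6.28 and 6.36 in the DMSO arrays, so that the TCDD arrays held both the highest and the lowest value. The difference was -0.115, with limits of -0.67 and 0.44. At its remaining probe sets the differences were 0.06 and -0.06, both below the median level and both with overlapping groups.

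The genes for glutathione synthesis differed little. Gclc encodes the catalytic and Gclm the modifier subunit of glutamate-cysteine ligase, the enzyme that sets the rate of glutathione synthesis, and both are NRF2 targets. The main probe set of Gclc measured 7.48 and 7.56 in the TCDD arrays, against 7.40 and 7.44 in the DMSO arrays, a difference of 0.10 with limits of -0.17 and 0.37. It was the only main probe set of the 9 with each TCDD array above either DMSO array. Its other probe set, whose level was also above the median, pointed the opposite way (-0.11), at 6.96 and 6.88 in the TCDD arrays and 6.77 and 7.29 in the DMSO arrays, with overlapping groups.

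Gclm measured 5.97 and 6.10 in the TCDD arrays, against 6.16 and 6.20 in the DMSO arrays. Both TCDD arrays were lower, by a small margin. The mean of the probe set, 6.11, lay close to the array-wide median of 6.01, as that of Nfe2l2 did. The difference of -0.145 was within the error of the fit, whose limits were -0.43 and 0.14.

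Gpx1, which encodes the cytosolic selenium-dependent glutathione peroxidase that turns hydrogen peroxide into water, was lower mainly in 1 TCDD array. It measured 8.48 and 9.19 in the TCDD arrays, against 9.20 and 9.39 in the DMSO arrays. TCDD array 1 stood apart below the others, and TCDD array 2 was just below DMSO array 1. The difference was -0.46, with limits of -1.14 and 0.22. It was -0.72 within number 1 and -0.20 within number 2, the reverse of the order seen for Nfe2l2 and Txn1. Without TCDD array 1 it was -0.105, and without TCDD array 2 it was -0.815.

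The probe sets of Sod1, which encodes the copper and zinc superoxide dismutase of the cytosol, went in opposite directions. The main probe set measured 10.32 and 10.14 in the TCDD arrays, against 10.55 and 10.43 in the DMSO arrays, a difference of -0.26 with limits of -0.58 and 0.06. The other, also above the median level, measured 6.84 and 6.82 in the TCDD arrays, against 6.37 and 6.54 in the DMSO arrays. It was higher in both TCDD arrays, by 0.375 with limits of 0.08 and 0.67, with an unadjusted limma p of 0.02332 (adjusted p = 0.9973). Each probe set kept its own direction within both numbers, at -0.23 and -0.29 for the main one and 0.47 and 0.28 for the other.

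Hmox1, which encodes the stress-inducible heme oxygenase and is among the genes most readily induced through NRF2 in many cells, did not differ measurably. It measured 6.42 and 6.61 in the TCDD arrays and 6.54 and 6.61 in the DMSO arrays. The groups overlapped and the difference was -0.06. Its limits were -0.37 and 0.25, the upper one a 1.19-fold higher signal, and they reflect only the spread among these arrays.

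**Figure D2:**
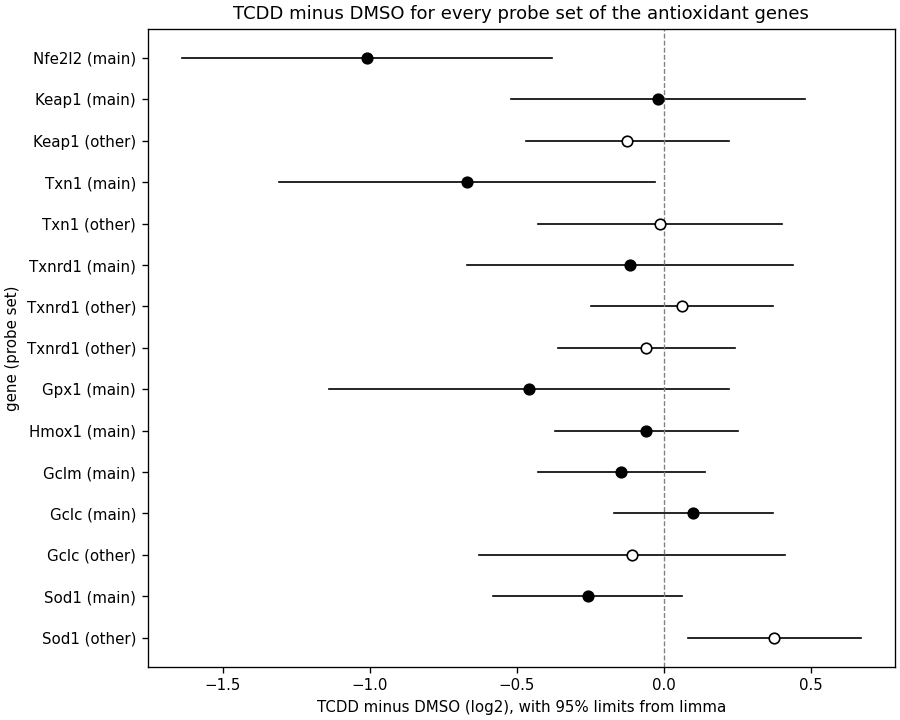
TCDD minus DMSO in log2 units (horizontal axis) for each of the 15 probe sets of the antioxidant genes, with 95% limits from limma. Filled points are main probe sets and open points are others. The limits lie below 0 for Nfe2l2 and the main probe set of Txn1, and above 0 for the second probe set of Sod1, and none of these passed adjustment.

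Over the 9 genes the median difference was -0.145, against 0.01 over all 12393 genes. Each TCDD array was below either DMSO array for 5 of the 9 (55.6%), where 12.0% of all genes had such groups, and above for 1 (11.1%), against 12.9% of all genes. The 5 were Nfe2l2, Txn1, Gpx1, Gclm and Sod1. The genes were picked with earlier results of these data known, so this count carries no test. Within both numbers 5 of the 9 were lower after TCDD and 1 was higher, against 20.2% and 22.6% of all genes. The median was -0.23 within number 1 and -0.20 within number 2, against -0.03 and 0.05 over all genes. Over the means of all probe sets of each gene it was -0.072. The median at the main probe sets had a spread between replicate arrays of 0.068 (SD), and no such spread was computed for the gene means.

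**Figure D3:**
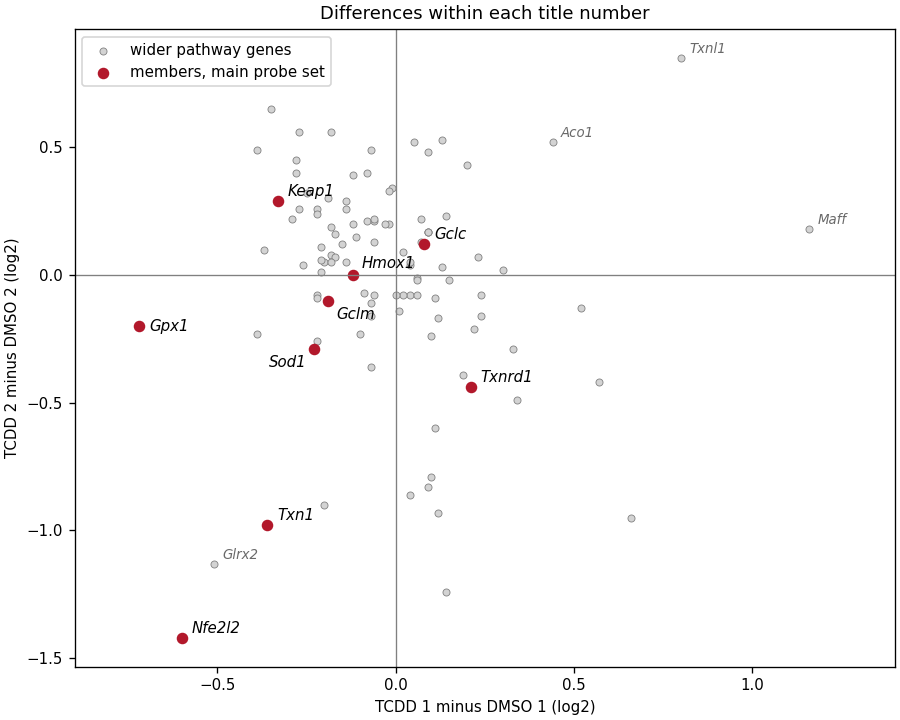
Difference of TCDD array 1 from DMSO array 1 (horizontal axis) against that of TCDD array 2 from DMSO array 2 (vertical axis), both in log2 units, for the main probe sets of the 9 antioxidant genes in red and of the wider pathway genes in grey. Nfe2l2 lies at -0.60 and -1.42 and Gpx1 at -0.72 and -0.20, while Keap1 and Txnrd1 lie where the numbers differ in sign.

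Other genes of the pathway were examined in 6 lists, of which 97 of 110 genes were measured. None of the 97 passed limma after adjustment in either direction, and at an unadjusted p under 0.05 there was 1 lower and 1 higher, where 2.11% of all genes met that mark in either direction. Their median difference was 0.02, and each TCDD array was below either DMSO array for 6 (6.19%) and above for 7 (7.22%), shares under those of all genes.

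The 17 measured genes of NRF2 control had a median of 0.02. Among them Maff, a small MAF partner of NRF2, measured 9.38 and 6.08 in the TCDD arrays and 8.22 and 5.90 in the DMSO arrays. Both arrays numbered 2 were far below the arrays numbered 1, and its difference of 0.67 had limits of -2.76 and 4.10. Mafk, another small MAF, showed the same split by number, at 9.30 and 8.27 after TCDD and 9.10 and 7.84 after DMSO. Bach2, a repressor that holds T cells in a resting state, measured 8.22 and 8.12 in the TCDD arrays and 8.13 and 8.95 in the DMSO arrays, and its difference of -0.37 rested on DMSO array 2, without which it was 0.04.

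In the glutathione list, with 23 genes measured and a median of 0.055, the single largest difference was in Glrx2. This gene encodes a mitochondrial glutaredoxin, and it measured 6.67 and 6.89 in the TCDD arrays, against 7.18 and 8.02 in the DMSO arrays. The groups were separate and DMSO array 2 was highest. The difference was -0.82, with limits of -1.60 and -0.04 and an unadjusted limma p of 0.04304 (adjusted p = 0.9973), and it was -0.40 without DMSO array 2. The other Glrx2 probe sets pointed the same way, at -0.775 and -0.31 with separate groups, but probe sets of 1 gene read the same RNA. Hagh, a hydrolase of the glyoxalase pathway, differed by 0.285, and its other probe sets by 0.375 and 0.345, with separate groups for all of them. Slc3a2, the heavy chain that cystine and amino acid exchangers need at the cell surface, differed by 0.185 and split by number like Maff, at 9.47 and 8.36 after TCDD and 9.33 and 8.13 after DMSO.

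The thioredoxin and peroxiredoxin list had 17 genes measured and a median of -0.04. Txnl1, a thioredoxin-like protein bound to the proteasome, differed the other way from Txn1. It measured 10.59 and 9.78 in the TCDD arrays, against 9.79 and 8.93 in the DMSO arrays, higher by 0.80 within number 1 and 0.85 within number 2. Because the arrays numbered 2 were lower in both treatments, the groups overlapped and the difference of 0.825 had limits of -0.21 and 1.86. Its 5 other probe sets, all below the median level, differed by -0.24 to 0.10. Its mean over all probe sets differed by 0.116. Sesn1, a stress-induced sestrin, differed by -0.345 with overlapping groups. Prdx2, a cytosolic peroxiredoxin, differed by -0.31 with overlapping groups, but by 0.05 with each TCDD array above either DMSO array at its other probe set, also above the median level, and by -0.13 over the mean of the 2 probe sets. Txnip, which binds and inhibits thioredoxin, differed by -0.04, and its other probe set by 0.

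Srxn1 and Nqo1 were examined as standard NRF2 targets outside the 10 genes, and neither passed limma (adjusted p = 0.9973 for both). Srxn1, which encodes the sulfiredoxin that repairs overoxidised peroxiredoxins, measured 7.68 and 7.73 in the TCDD arrays, against 7.90 and 7.82 in the DMSO arrays. These groups were separate, and the difference of -0.155 had limits of -0.43 and 0.12. The other Srxn1 probe sets, all below the median level, differed by -0.06, 0.17 and 0.01, and the one at 0.17 was higher on each TCDD array than on either DMSO array. Over the mean of its probe sets Srxn1 differed by -0.009. Nqo1, the quinone reductase, measured 4.55 and 4.79 in the TCDD arrays and 4.69 and 4.74 in the DMSO arrays, with a difference of -0.045. Its level was in the lowest part of the array, at percentile 20.5, where a change in transcript may be compressed.

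The remaining lists had medians of 0.035 for superoxide and peroxide removal (11 genes measured), -0.07 for heme and iron handling (12) and 0.025 for NADPH supply and detoxification (17). Aco1, which encodes an iron-sensing aconitase that can bind iron-responsive elements, measured 7.45 and 7.26 in the TCDD arrays, against 7.01 and 6.74 in the DMSO arrays. It was higher in both TCDD arrays, by 0.48 with limits of 0.10 and 0.86 and an unadjusted limma p of 0.02361 (adjusted p = 0.9973). This main probe set of Aco1 is marked for cross hybridisation. The other, below the median level, was higher by 0.28.

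The ferritin heavy chain gene Fth1 differed by -0.245, by 0.04 at its other probe set and by -0.103 over the mean of both. The iron exporter gene Slc40a1 differed by -0.405 with its highest value, 7.54, in DMSO array 2, while its other probe set differed by -0.065 and the mean of both by -0.235. Oxr1, an oxidation resistance gene, differed by -0.55 and was highest in the same array at 7.73, against 6.49 to 6.84 in the others. Its other probe set differed by -0.33. Romo1, a mitochondrial membrane protein gene, differed by -0.215 and the NADPH oxidase subunit gene Cyba by 0.15. The detoxification genes Cbr1 and Ephx1 differed by 0.165 and 0.16, and Pgd, an NADPH-producing enzyme of the pentose phosphate pathway, by 0.145. At the main probe sets groups overlapped for all of these except Pgd.

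**Figure D4:**
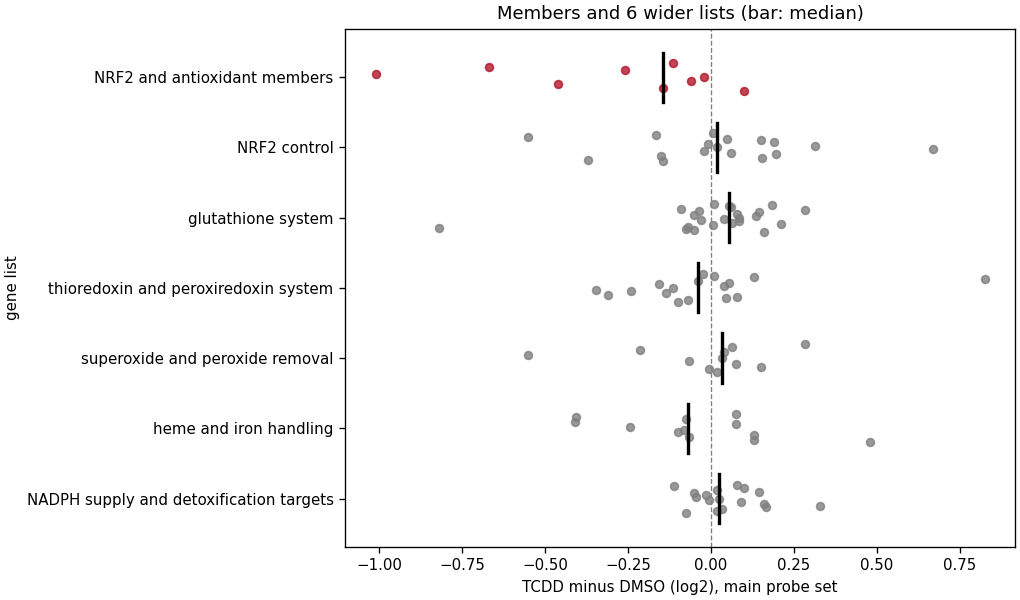
TCDD minus DMSO in log2 units (horizontal axis) of the main probe set of each gene, for the 9 measured antioxidant genes in red and the 6 wider lists in grey, with bars at the medians. The median is -0.145 for the 9 genes and lies between -0.07 and 0.055 for the wider lists.

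Values of each gene were centred on its own mean over the 4 arrays. The 3 genes that then lay nearest to Nfe2l2 were Ormdl1, B3gnt5 and Zkscan3, at root mean square distances of 0.0612, 0.0981 and 0.0988 log2 units. They differed by -0.94, -0.895 and -0.835, each with DMSO array 2 highest. With 4 arrays, likeness of this kind is a description only. The second probe sets of B3gnt5 and Zkscan3 differed by 0.085 and -0.02, but both were below the median level, at percentiles 2.2 and 26.0.

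Markers of the sorted cells and of other cells were set beside these values. The 8 measured CD8 T cell markers were all above the median level. Of them, 4 were lower on each TCDD array than on either DMSO array and 0 were higher on each. Of all genes, 12.0% were lower and 12.9% higher in this way. The median difference of these 8 markers was -0.22, against -0.145 for the 9 antioxidant genes. Their differences ran from -0.73 to -0.005. Thy1 (-0.7) and Cd8a (-0.73) had an unadjusted limma p under 0.05, and 0 of the 8 passed adjustment. The mean level of the CD8 T cell markers was 8.83 and 9.17 in the TCDD arrays, against 9.24 and 9.37 in the DMSO arrays. Of the 8 measured neutrophil markers, 1 was lower in both TCDD arrays (12.5%, against 12.0% of all genes) and 0 were higher, and their median difference was -0.095. Their mean level was 5.96 and 6.24 in the TCDD arrays, against 5.91 and 6.92 in the DMSO arrays, where S100a8 and S100a9 stood out at 8.67 and 7.80 in DMSO array 2. Camp, Ltf and Ngp were also highest in DMSO array 2, at 6.52, 6.74 and 6.89. Elane, Mpo and Cxcr2 measured 7.05, 6.23 and 5.92 in TCDD array 2, above their values of 6.98, 6.18 and 5.59 in DMSO array 2. The genes singled out here were chosen after their values were seen. DMSO array 2 was also the highest array for Nfe2l2, Txn1, Gpx1 and Gclm, and without it their differences were -0.68, -0.325, -0.365 and -0.125. RMA values have no 0, so no marker can be called absent.

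Median differences were -0.032 over 8 B cell markers, 0.03 over 11 macrophage markers, 0.13 over 5 dendritic cell markers, -0.025 over 6 erythroid markers and 0.013 over 4 CD4 T cell markers. None of these markers passed limma after adjustment. Early response and cell dissociation genes had a median of -0.61 over 23, of which 8 were lower in both TCDD arrays and 2 higher (34.8% and 8.70%, against 12.0% and 12.9% of all genes). Their mean level was 9.60 and 8.82 in the TCDD arrays, against 10.18 and 9.45 in the DMSO arrays. The largest differences of this list, -1.89 for Hspa1a and -1.79 for Hspa1b, came with high values in DMSO array 2. There they measured 9.14 and 11.94, against 6.72 and 9.68 in DMSO array 1. Most other genes of the list were highest in another array, such as Jun and Zfp36 at 11.97 and 10.61 in DMSO array 1. These genes were picked after their values were seen. The part of these marker and early response genes in the values of the antioxidant genes was not tested.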

How the data were processed

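The authors deposited log2 values of 4 arrays, made with RMA per the submitters' processing notes. The version and settings of RMA are not given in the sources used here. That the scale is log2 was judged from the range of the values, 3.09 to 14.62. Array medians were 5.97 and 6.03 for TCDD and 5.99 and 6.01 for DMSO. Precision is limited by having 2 arrays a group.

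Of 22690 probe sets, 64 controls were left out. Names came from the platform annotation, updated by Entrez identifier through RefSeq (GRCm38.p6): 20380 probe sets had 1 gene, 691 had several and 1555 were unnamed here. Differences were tested with lmFit and eBayes of limma 3.58.1 under R 4.3.3, without covariate or filter, and p-values were adjusted by Benjamini-Hochberg over 22626 probe sets. The step was tested on simulated data.

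Genes, lists and tests were chosen with earlier results of these data known. Beside the 10 genes, the rule named Nqo1, Srxn1 and Txnip, the 3 largest differences above the median level in each of 6 pathway lists, and the 3 genes nearest to Nfe2l2. Other genes are named for a list count. Alternatives were other scalings, a level filter, a variance trend, array weights, other probe set rules, a replicate block and each array left out.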

Additional observations from a re-analysis of the deposited data

How the results depend on the processing

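The count of probe sets past an adjusted p of 0.05 in limma stayed at 0 in all 12 alternatives, as did the counts among the 9 antioxidant and the wider pathway genes. At an unadjusted p under 0.05, the counts ran from 116 without DMSO replicate 2 to 1079 without TCDD replicate 1. Same-numbered arrays deviated together from their group means (r = 0.234 over 22626 probe sets), but 2 shared numbers do not show pairing. With the replicate block 612 probe sets had an unadjusted p under 0.05 and 0 passed. The median difference over the antioxidant genes was -0.145 with the block too, and with single arrays left out it lay between -0.21 and -0.105. It moved to -0.072 for gene means, where Sod1 turned to 0.057 and Gclc to -0.005. The number lower in both TCDD arrays was 5 of 9 as reported, 4 of 9 for gene means and after a further quantile normalisation, and 4 of 8 with the level filter. With single arrays left out it was between 5 and 7, but separating 2 arrays from 1 is easier than separating 2 from 2. The share of all genes was not computed in these alternatives, so the counts do not show how stable the result is. The wider pathway median lay between -0.06 (without TCDD replicate 2) and 0.04 with single arrays left out. Without probe sets marked for cross hybridisation Gclc was at -0.11 and Pgd at -0.22, and after a further quantile normalisation Keap1 was at 0.01. The filter at the median level removed Nfe2l2. With single arrays left out the sign turned for Keap1 (-0.26 to 0.22), Txnrd1 (-0.40 to 0.17), Hmox1 (-0.155 to 0.035), Nqo1 (-0.165 to 0.075), Txnip (-0.235 to 0.155), Maff (-0.98 to 2.32), Mafk (-0.315 to 0.945), Bach2 (-0.78 to 0.04), Slc3a2 (-0.415 to 0.785), Cyba (-0.535 to 0.835), Romo1 (-0.525 to 0.095), Slc40a1 (-1.195 to 0.385) and Fth1 (-0.665 to 0.175). The causes were not tested.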

Other observations

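Further genes of the wider lists had probe sets that disagreed. Sesn1, the sestrin gene, differed by -0.345 at its main probe set, by 0.28 at another above the median level, and by -1.07 at the lowest, below it, which measured 4.72 and 4.13 in the TCDD arrays, against 4.82 and 6.17 in the DMSO arrays. Pgd differed by 0.145, 0.15 and 0.12 at probe sets marked for cross hybridisation and by -0.22 at the one without that mark, with separate groups at all of them. These genes were singled out after their values were seen.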
